A study of Homo sapiens with 6 samples.

Results

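The genes described are 10 regulators of the NRF2 response, chosen by symbol from the 18126 symbols in each expression table. They include the CNC transcription factor genes NFE2L2 (which encodes NRF2) and NFE2L1, the repressor gene BACH1 and the small MAF genes MAFF, MAFG and MAFK. The genes of the sensor KEAP1 and of its ligase scaffold CUL3 also belong. SQSTM1 and OSGIN1, genes that NRF2 induces, complete them and are called the feedback targets here. The other members were not sorted by whether NRF2 induces them. The choice was made with the difference between the groups already known, and SQSTM1 and OSGIN1 were among the largest differences. The values of these 10 genes between the groups are therefore given as a description, with no p-value. The cells were 786-O, a human line of clear cell renal carcinoma that lacks functional VHL, sequenced as 6 bulk RNA libraries. By the labels, the 3 Control libraries are from cells given a control transfection, and the 3 siTEAD4 libraries are from cells transfected to silence TEAD4, which encodes a TEAD factor that brings YAP to DNA. Dose and time are not given in the labels, which also do not say whether replicates were separate cultures. The spread between replicates, and p-values from it, may therefore be technical.

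NRF2 is made continuously and, in unstressed cells, KEAP1 holds it for ubiquitination by a ligase built on CUL3, so that the proteasome removes it. Electrophiles and oxidants modify cysteines of KEAP1, NRF2 escapes, pairs with a small MAF protein and binds antioxidant response elements in genes for glutathione synthesis, quinone reduction and NADPH supply. BACH1 pairs with the same small MAF proteins and represses many of these genes until heme releases it. The autophagy receptor p62, encoded by SQSTM1, binds KEAP1 and carries it to autophagosomes, and its gene is an NRF2 target, which closes a loop. In kidney tumours, lesions of this pathway are best known from papillary carcinoma. Much of this control acts on proteins, which these libraries did not measure.

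On GRCh38 with GENCODE release 29, SQSTM1 spans chromosome 5, 179806398 to 179838078, plus strand, and OSGIN1 chromosome 16, 83948282 to 83966332, plus strand. NFE2L2 spans chromosome 2, 177227595 to 177392697, minus strand, and NFE2L1 chromosome 17, 48048329 to 48061487, plus strand. KEAP1 lies on chromosome 19, 10486120 to 10503741, minus strand, CUL3 on chromosome 2, 224470150 to 224585397, minus strand, and BACH1 on chromosome 21, 29194071 to 29630751, plus strand. The small MAF genes are MAFF on chromosome 22, 38200767 to 38216511, plus strand, MAFG on chromosome 17, 81918270 to 81927714, minus strand, and MAFK on chromosome 7, 1530714 to 1543043, plus strand. RefSeq promoter windows on GRCh38.p14, from 250 bases before to 50 bases after a start, were at hand for 9 of the 10 genes, in 18 windows. They were searched on both strands for TGACNNNGC, the core of the antioxidant response element, for TGCTGAC, one arm of the MAF recognition element, and for GGAATG, the core bound by TEAD proteins. The first pair can overlap, since TGAC belongs to each. The stretches below are shown because they hold such a match in SQSTM1 and OSGIN1, the members with the largest differences, and in MAFF; each is the longest run of the window that holds the match and no annotated UTR base, 5′ to 3′ on the gene's strand, with the match in capitals.

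SQSTM1, chr5:179820655-179820758, plus strand: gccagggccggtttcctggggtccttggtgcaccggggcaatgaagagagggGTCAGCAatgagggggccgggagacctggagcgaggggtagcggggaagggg

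OSGIN1, chr16:83952990-83953221, plus strand: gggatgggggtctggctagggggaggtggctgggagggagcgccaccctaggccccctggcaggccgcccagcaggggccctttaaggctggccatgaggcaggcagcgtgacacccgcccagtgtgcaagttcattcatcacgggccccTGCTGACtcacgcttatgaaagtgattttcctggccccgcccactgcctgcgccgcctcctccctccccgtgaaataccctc

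MAFF, chr22:38201744-38201881, plus strand: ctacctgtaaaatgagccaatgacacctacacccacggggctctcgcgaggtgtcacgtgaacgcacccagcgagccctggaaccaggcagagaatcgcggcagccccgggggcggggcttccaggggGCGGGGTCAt

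The match in OSGIN1 was TGCTGAC on the gene's strand, with its first base 100 bases before the start. The matches in SQSTM1 (TGCTGAC) and MAFF (TGACNNNGC) were on the opposite strand, with their first printed base 198 and 122 bases before the start. KEAP1 also held TGACNNNGC, at 2 places in 1 of its windows. These letters are common: TGACNNNGC occurred in 13.3% of all 35116 windows, TGCTGAC in 4.19% and GGAATG in 14%. Among the 18 windows of the members, 2 held TGACNNNGC, 2 held TGCTGAC and 1, of CUL3, held GGAATG. A match describes the letters only, and a window without one says nothing about elements farther away.

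Before the values, some facts of the whole series bear on them. The value columns of the libraries labelled siTEAD4 are headed "Tead_Inhibitor", while Control 2 and 3 have the heading "Vehicle". Groups follow the labels, and a direction given for siTEAD4 is that of the libraries so labelled, since the treatment itself could not be settled. The targeted gene TEAD4 had 12.52, 16.99 and 11.28 FPKM (fragments relative to the length of the gene and the mapped total of the library) in the Control libraries, in replicate order, against 8.92, 7.65 and 7.52 FPKM in the siTEAD4 libraries. The log2 difference was -0.68, with an adjusted p of 0.00521 by limma (Benjamini-Hochberg) and an exact two-sided permutation p of 0.1, the smallest that 3 against 3 libraries allow. Control 2 stood apart from the other controls: its median absolute log2 difference was 0.278 from Control 1 and 0.19 from Control 3, against 0.123 between Control 1 and Control 3 and 0.0557 to 0.0795 among the siTEAD4 libraries. All 8 renal and tumour markers passed the expression filter, with summed levels of 3856.46 to 4565.94 FPKM in Control and 3648.44 to 3795.92 FPKM in siTEAD4. PAX8, KRT8, KRT18 and VIM were not called by limma, and CA9 was low, at 1.38 to 2.25 FPKM over the 6 libraries, and not called. EPAS1 was called higher (0.32, limma adjusted p = 0.035), while PAX2 fell from 7.65 to 4.06 FPKM (-0.76, limma adjusted p = 0.00186) and CDH6 from 155 to 29.3 FPKM (-2.35, limma adjusted p = 3.42e-06). Of the markers of other cells, PTPRC, CD3E, CD79A, PECAM1, CDH5, VWF, DCN and PDGFRB were at 0.42 FPKM or less in every library. The remaining ones moved with the groups: CD68, a lysosomal protein gene not limited to macrophages, fell from 31.7 to 20.01 FPKM (-0.62, limma adjusted p = 0.00442) and LUM from 2.01 to 0.707 FPKM (-0.81, limma adjusted p = 0.000337). The part of these shifts in the members' values was not tested. No read counts come with FPKM values, and the depth behind each one is unknown. In bulk RNA a change in the share of cells that express a gene and a change in RNA per cell cannot be told apart.

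Of the CNC activator genes, NFE2L1 was lower in siTEAD4 and NFE2L2 overlapped between the groups. NFE2L2, the gene of NRF2 itself, stood at 73.14, 59.53 and 72.44 FPKM in Control 1 to 3, against 62.48, 62.13 and 68.73 FPKM in siTEAD4 1 to 3. The groups overlapped, with the lowest value in Control 2, and they averaged 68.4 ± 7.66 and 64.4 ± 3.71 FPKM (SD, n = 3 each), a difference of -0.08 on the log2(FPKM + 1) scale used for all differences here. Without Control 2 the difference was -0.17 and NFE2L2 passed the threshold of the fit across all genes as lower. It did so in no other of the 17 alternative fits, and nothing is read from this call.

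NFE2L1, the gene of the related CNC factor NRF1 that induces proteasome genes when the proteasome is short, was at 62.87, 58.83 and 57.39 FPKM in the controls, against 31.07, 31.61 and 30.8 FPKM in siTEAD4. Every siTEAD4 library lay below every Control library, by at least 25.8 FPKM. The groups averaged 59.7 ± 2.84 and 31.2 ± 0.412 FPKM (SD, n = 3 each), so siTEAD4 held 52.2% of the Control level, a log2 difference of -0.92. It was the only member whose siTEAD4 values all lay below its Control values.

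The repressor gene BACH1 was at 5.31, 3.23 and 5.06 FPKM in the controls, against 7.78, 7.2 and 7.18 FPKM in siTEAD4. The groups did not overlap, and Control 2 was again the lowest library. The groups averaged 4.53 ± 1.14 and 7.39 ± 0.341 FPKM (SD, n = 3 each), 1.63-fold higher in siTEAD4. The log2 difference of 0.62 became 0.44 without Control 2.

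The sensor and ligase genes differed by less than most other members. KEAP1 stood at 24.03, 30.74 and 26.4 FPKM in the controls, against 33.06, 35.81 and 32.78 FPKM in siTEAD4, averaging 27.1 ± 3.40 and 33.9 ± 1.67 FPKM (SD, n = 3 each). The groups were separated by 2.04 FPKM, less than the SD of the controls, and the difference was 0.32 on the log2 scale. CUL3, whose product is the scaffold that joins KEAP1 to the ubiquitin-transferring subunit, was at 22.02, 17.98 and 20.38 FPKM in the controls, against 24.68, 22.39 and 25.05 FPKM in siTEAD4. Its groups were separated by 0.37 FPKM, and the log2 difference was 0.25. Both genes thus stood slightly higher in siTEAD4, by 1.25-fold for KEAP1 and 1.19-fold for CUL3.

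The small MAF genes, whose products have a DNA-binding leucine zipper and no activation domain, were all higher in siTEAD4 with no overlap. MAFG went from 9.57, 9.29 and 10.09 FPKM in Control to 16.37, 15.64 and 16.61 FPKM in siTEAD4. The groups were 5.55 FPKM apart and averaged 9.65 ± 0.406 and 16.2 ± 0.505 FPKM (SD, n = 3 each), a log2 difference of 0.69. MAFF, the member of this family known as inducible by stress and cytokines, was at 6.05, 8.38 and 5.9 FPKM in the controls, against 11.04, 10.87 and 10.03 FPKM in siTEAD4. Control 2 was the high control, and the log2 difference was 0.60, or 0.74 without that library. MAFK was at 11.11, 12.57 and 12.36 FPKM in the controls, against 17.84, 17.76 and 14.49 FPKM in siTEAD4, where siTEAD4 3 was the low library, with a log2 difference of 0.44.

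Taken as a pool, MAFF, MAFG and MAFK summed to 26.73, 30.24 and 28.35 FPKM in Control and to 45.25, 44.27 and 41.13 FPKM in siTEAD4. The sums did not overlap and averaged 28.4 ± 1.76 and 43.6 ± 2.15 FPKM (SD, n = 3 each). The makeup of the pool shifted less than its size: MAFG held 34.0 ± 2.87% of the sum in Control and 37.3 ± 2.71% in siTEAD4 with overlap, MAFF 23.7 ± 3.58% and 24.4 ± 0.0937% with overlap, and MAFK 42.2 ± 1.17% and 38.3 ± 2.64% without overlap.

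**Figure D1:**
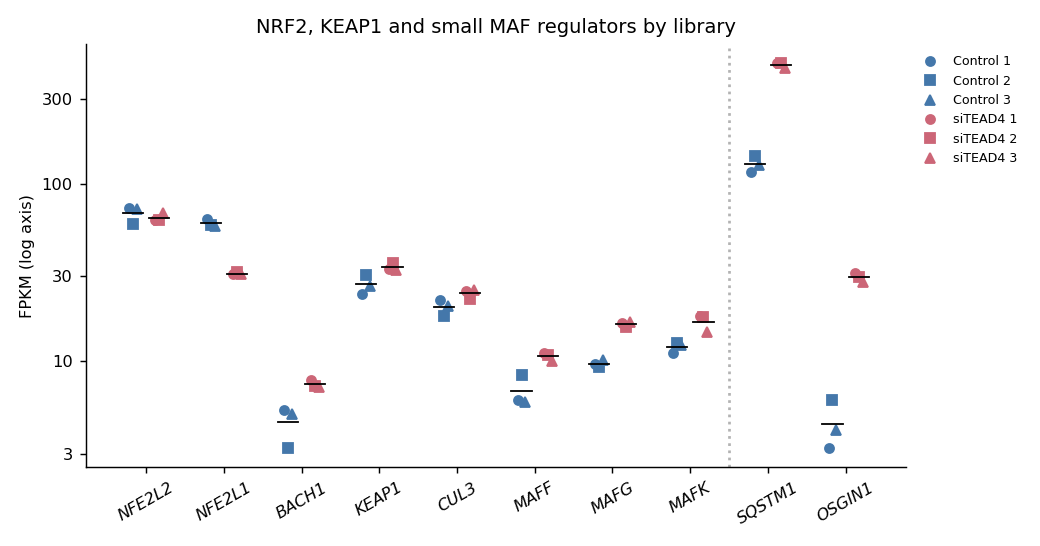
FPKM of each of the 10 genes (log axis) in the 3 Control libraries (blue) and the 3 siTEAD4 libraries (red), with the marker shape giving the replicate number and the black bar the group mean; a dotted line sets the feedback targets apart. SQSTM1 and OSGIN1 show the widest gaps between groups, NFE2L1 is the gene with all siTEAD4 values lower, and NFE2L2 is the gene whose groups overlap.

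The feedback targets showed the largest differences of the 10 genes. SQSTM1, the p62 gene, stood at 116.4, 142.84 and 127.42 FPKM in the controls, against 477.49, 476.35 and 448.95 FPKM in siTEAD4. The lowest siTEAD4 library exceeded the highest Control library by 306 FPKM. The groups averaged 129 ± 13.3 and 468 ± 16.2 FPKM (SD, n = 3 each), 3.63-fold higher in siTEAD4, and the log2 difference was 1.86. Among the 11411 genes tested, SQSTM1 ranked 11 by the size of its rise.

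OSGIN1, which encodes an oxidative stress-induced growth inhibitor, stood at 3.25, 6 and 4.08 FPKM in the controls, against 31.27, 29.97 and 27.82 FPKM in siTEAD4. All siTEAD4 libraries lay at least 21.8 FPKM above all controls, among which Control 2 was the highest. The groups averaged 4.44 ± 1.41 and 29.7 ± 1.74 FPKM (SD, n = 3 each), 6.68-fold higher in siTEAD4. Its log2 difference of 2.52 ranked 4 among the rises of all genes tested. Since the scale adds 1 to each FPKM value, it understates the change of a gene as low as OSGIN1 in Control.

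Set against each other, the largest difference among the 8 factor, sensor, ligase and partner genes was 0.69 (MAFG). The smaller of the feedback targets stood at 1.86 (SQSTM1), which is 1.16 more on the log2 scale. SQSTM1 and OSGIN1 were known in advance to be among the largest differences, and the 8 genes may include NRF2 targets too. The 8 genes had a median difference of 0.38, where the median of all genes tested was 0.09. In the fit across the whole table, 7 of the 10 members were called higher and 1 lower at an adjusted p under 0.05, where 26.1% of all genes tested were called higher and 18.8% lower. The groups did not overlap in 8 members that were higher and 1 that was lower, where this held for 35.1% and 22.6% of all genes tested, 57.7% in all. Because the members were chosen with this comparison known, nothing is read from these counts. The members that were not called were NFE2L2 and CUL3.

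Because FPKM is scaled by gene length, levels of different genes within a library can be set side by side, though only roughly. The gene lengths and read assignment behind the values are not given, and MAFG shares its locus with SIRT7 on the same strand. NFE2L2 stood at 3.04, 1.94 and 2.74 times the level of KEAP1 in Control 1, 2 and 3 and at 1.89, 1.73 and 2.10 times in siTEAD4, ratios that overlap through Control 2. Against its paralog NFE2L1 it stood at 1.16, 1.01 and 1.26 times in Control and at 2.01, 1.97 and 2.23 times in siTEAD4, without overlap. Against the repressor gene BACH1 it stood at 13.8, 18.4 and 14.3 times in Control and at 8.03, 8.63 and 9.57 times in siTEAD4. The level of the activator's transcript relative to the repressor's was thus lower in every siTEAD4 library. Whether this ratio bears on the levels of SQSTM1 and OSGIN1 was not tested.

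The small MAF sum relative to NFE2L2 was 0.365, 0.508 and 0.391 in Control and 0.724, 0.713 and 0.598 in siTEAD4, again without overlap. SQSTM1 relative to KEAP1, the protein that p62 binds, was 4.84, 4.65 and 4.83 in Control and 14.4, 13.3 and 13.7 in siTEAD4. The Control ratios of this pair lay closer together than the levels of either gene, since Control 2 was the high control for both.

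**Figure D2:**
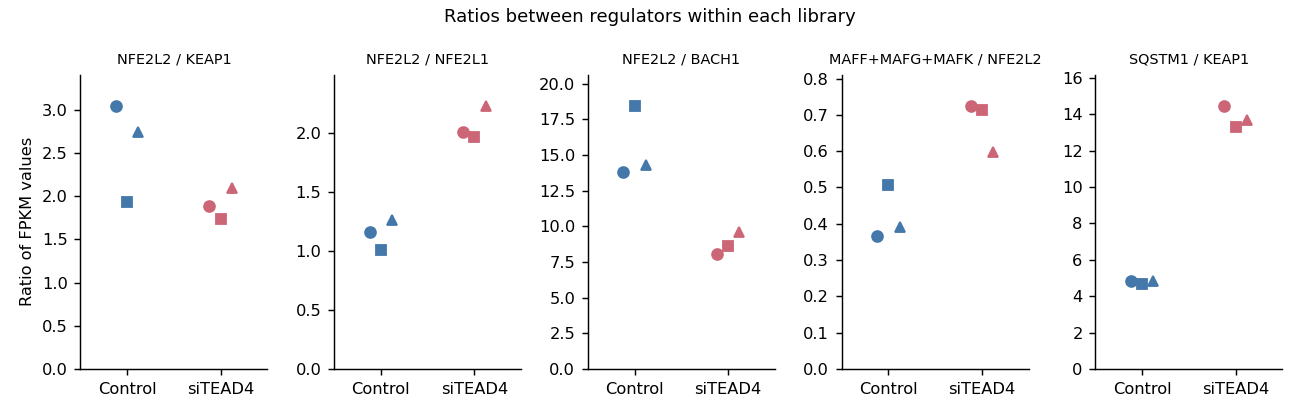
Ratio of FPKM values (linear axes from 0) between pairs of regulators within each library, Control in blue and siTEAD4 in red, with the marker shape giving the replicate number. NFE2L2 over KEAP1 overlaps between the groups through Control 2, at 1.94; the other ratios do not overlap, and SQSTM1 over KEAP1 lies between 4.65 and 4.84 in Control and between 13.3 and 14.4 in siTEAD4.

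The order of the levels was alike in the groups apart from OSGIN1 and NFE2L1. In Control it ran SQSTM1, NFE2L2, NFE2L1, KEAP1, CUL3, MAFK, MAFG, MAFF, BACH1 and OSGIN1. Neighbours overlapped over the 3 libraries only for NFE2L2 with NFE2L1 and for BACH1 with OSGIN1. Among the siTEAD4 libraries the order was SQSTM1, NFE2L2, KEAP1, NFE2L1, OSGIN1, CUL3, MAFK, MAFG, MAFF and BACH1, and the overlapping neighbours were NFE2L1 with OSGIN1 and MAFK with MAFG. OSGIN1 moved from place 10 to place 5, past BACH1, all 3 small MAF genes and CUL3. In Control, SQSTM1 lay above 95.4% of the genes tested and NFE2L2 above 90.1%, while BACH1 and OSGIN1 lay above 21.8% and 21.3%.

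**Figure D3:**
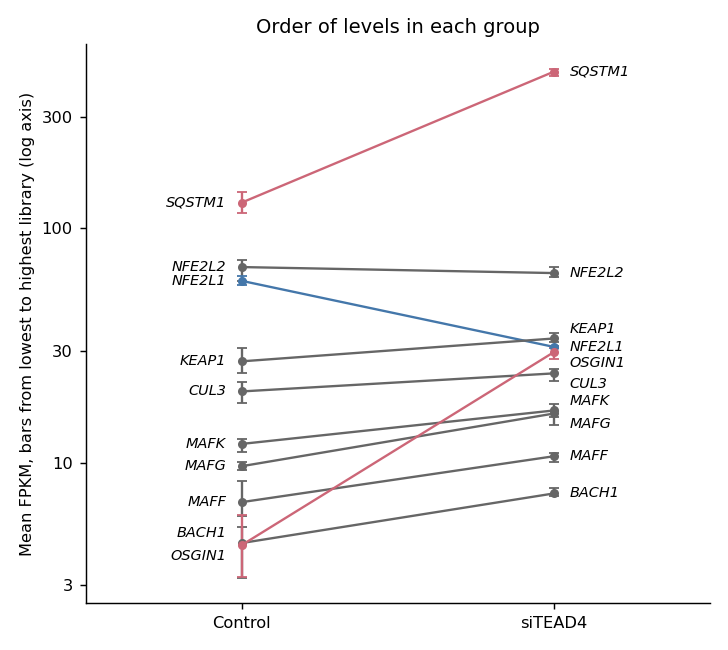
Mean FPKM of each gene in Control and siTEAD4 (log axis), joined by a line, with bars from the lowest to the highest library (n = 3). The feedback targets are red and NFE2L1 blue; OSGIN1 climbs from the lowest place to between NFE2L1 and CUL3, and NFE2L1 drops to below KEAP1.

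The other genes of the pathway were counted from lists written with earlier results of these data known. Up to 3 genes per list are named for the largest called difference, and a few others were named after their values were seen. Their adjusted p-values describe this contrast and are no separate support. Of 36 textbook NRF2 effector targets outside the members, 33 reached the expression filter of at least 1 FPKM in at least 3 libraries; 29 of these rose, 1 fell and 3 were not called (limma, Benjamini-Hochberg adjusted p under 0.05). Their median log2 difference was 1.09, against 0.09 over all genes tested, of which 44.9% were called. AKR1B10, an aldo-keto reductase gene, rose from 32.8 ± 2.64 to 764 ± 10.5 FPKM (log2 difference 4.50, adjusted p = 2.21e-08 by limma), though reads shared with the near-identical AKR1B15 could be split in ways not given here. HMOX1, the heme oxygenase gene that BACH1 represses, rose from 17.3 ± 1.52 to 312 ± 12.2 FPKM (4.10, adjusted p = 3.7e-08 by limma). NQO1, a quinone reductase gene, rose from 107 ± 7.15 to 464 ± 8.05 FPKM (2.11, adjusted p = 1.34e-06 by limma). The 1 gene that fell, named after its value was seen, was the glutathione conjugate exporter gene ABCC1 (-0.68, limma adjusted p = 0.000367).

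OSGIN1 and SQSTM1 lay within the range of these effectors: 2 of the 33 had a difference at least as large as that of OSGIN1 and 4 at least as large as that of SQSTM1. In contrast, 26 of the 33 exceeded the largest difference among the factor, sensor, ligase and partner genes. These effectors share the libraries with the members, so this is a description of the same contrast.

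Of the CNC, BACH and large MAF relatives, NFE2 (the erythroid factor), BACH2 and MAFA were at 0.18 FPKM or less in every library and were not tested. NFE2L3, the remaining CNC paralog, stood at 36.2, 29.73 and 35.07 FPKM in the controls, against 12.05, 12 and 12.18 FPKM in siTEAD4. It fell by 1.40 on the log2 scale (limma adjusted p = 1.18e-05), to 35.9% of the Control level. The large MAF gene MAF had a difference of -0.19 and was not called (limma adjusted p = 0.0818). Thus, of the expressed CNC paralogs, NFE2L1 and NFE2L3 were lower in siTEAD4 in every library while NFE2L2 overlapped.

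A list of 18 tested genes held ubiquitin ligases, their regulators, and kinases or other modifiers of proteins of the pathway. Of these, 9 rose and 2 fell, so 61.1% were called. Of all genes tested, 26.1% were called higher and 18.8% lower, 44.9% in all. FBXO22, the substrate receptor that marks BACH1 for degradation, rose from 14.1 ± 1.64 to 21.3 ± 0.962 FPKM (0.57, limma adjusted p = 0.00199). FBXW11, a receptor of the beta-TrCP type that recognizes phosphorylated NRF2, rose by 0.48 (limma adjusted p = 0.0111), or by 0.35 without Control 2, and lost its call without siTEAD4 3. CAND1, the exchange factor of cullin ligases, rose by 0.46 (limma adjusted p = 0.0431), or by 0.26 without Control 2. It lost its call without Control 3 or any 1 siTEAD4 library and after each of the 3 rescalings tried. The 2 that fell, named after their values were seen, were RBX1 (-0.29, limma adjusted p = 0.0235) and SYVN1 (-0.32, limma adjusted p = 0.0268).

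Of 8 genes listed for binding of their products to KEAP1 or NRF2 or for an effect on NRF2 stability, 4 rose and none fell by limma. The called share of 50% was near the 44.9% of all genes tested. PGAM5, the mitochondrial phosphatase that KEAP1 binds, rose from 23.1 ± 1.74 to 33.3 ± 1.23 FPKM (0.51, limma adjusted p = 0.00137). CDKN1A, the gene of the cell cycle inhibitor p21, rose by 0.48 (limma adjusted p = 0.00845). PALB2, the BRCA2 partner with a KEAP1-binding motif, rose by 0.39 (limma adjusted p = 0.0175), a call lost without Control 3 or any 1 siTEAD4 library.

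Of 9 genes of coregulators and partners, 1 rose and 4 fell, a called share of 55.6% beside 44.9% of all genes tested. JUN, an AP-1 subunit, rose from 74.6 ± 1.97 to 127 ± 6.43 FPKM (0.76, limma adjusted p = 9.87e-05). RXRA, whose product binds and restrains NRF2, fell from 16.4 ± 0.354 to 11.7 ± 0.301 FPKM (-0.45, limma adjusted p = 0.0016). CHD6, the remodeller that binds NRF2, fell by 0.44 on the log2 scale (limma adjusted p = 0.0221), a call lost without Control 3 or any 1 siTEAD4 library.

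For NFE2L1, the genes of its processing were tested as well. NGLY1, the deglycosylating enzyme that activates NRF1, rose from 18.9 ± 1.07 to 26.1 ± 1.58 FPKM (0.44, limma adjusted p = 0.00311). VCP, the ATPase that extracts NRF1 from the endoplasmic reticulum, rose by 0.21 (limma adjusted p = 0.0382) and lost its call with the replicate block (limma adjusted p = 0.0885), without Control 3 or any 1 siTEAD4 library, and after each rescaling. DDI2, the protease that cleaves NRF1, was at 4.68, 2.68 and 3.92 FPKM in Control and 5.11, 4.93 and 5.64 FPKM in siTEAD4 and was not called (0.41, limma adjusted p = 0.0543). Of 31 proteasome subunit genes, known targets of NRF1, 18 rose and none fell by limma, a share of 58.1% where 26.1% of all genes tested were called higher, and the median was 0.30 beside 0.09 over all genes tested. PSMD12 (0.63), PSMC2 (0.60) and PSMD7 (0.59), all of the regulatory particle, led them. The count was 28 without Control 2, between 10 and 11 without any 1 siTEAD4 library and 10 after rescaling to one median. Genes called higher in the whole table moved too, from 2982 to 4034, to between 1801 and 1870 and to 2172. TMM-like scaling gave 13 subunits and quantile normalization 18, with 2231 and 2759 genes called higher in the whole table. NFE2L1 was thus lower in siTEAD4 in the libraries in which the 18 genes called with all libraries were higher. A link between them was not tested.

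Of 8 genes for partners and kinases of p62, 4 rose and none fell by limma, again 50% called and near the 44.9% of all genes tested. MAP1LC3B, the autophagosome protein to which p62 binds, stood at 43.76, 43.09 and 41.36 FPKM in the controls, against 87.63, 86.02 and 88.31 FPKM in siTEAD4, a rise of 1.01 on the log2 scale (limma adjusted p = 1.67e-05). TBK1, a kinase of p62, rose by 0.37 (limma adjusted p = 0.0154), a call lost without siTEAD4 2 or siTEAD4 3. MAP3K7, the kinase TAK1, rose by 0.49 (limma adjusted p = 0.0184), or by 0.32 without Control 2, and lost its call without any 1 siTEAD4 library. In all, 20 of the 48 other regulators tested rose and 7 fell, 56.2% called beside 44.9% of all genes tested, with a median of 0.22 beside 0.09. Without Control 3 or any 1 siTEAD4 library the total called was 10 to 13 of the 48. That of the whole table fell as well, from 5123 to between 3415 and 3781 of 11411 genes. In each of these omissions the share called in the list was below that of all genes tested. After rescaling to one median, 14 rose and 10 fell.

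**Figure D4:**
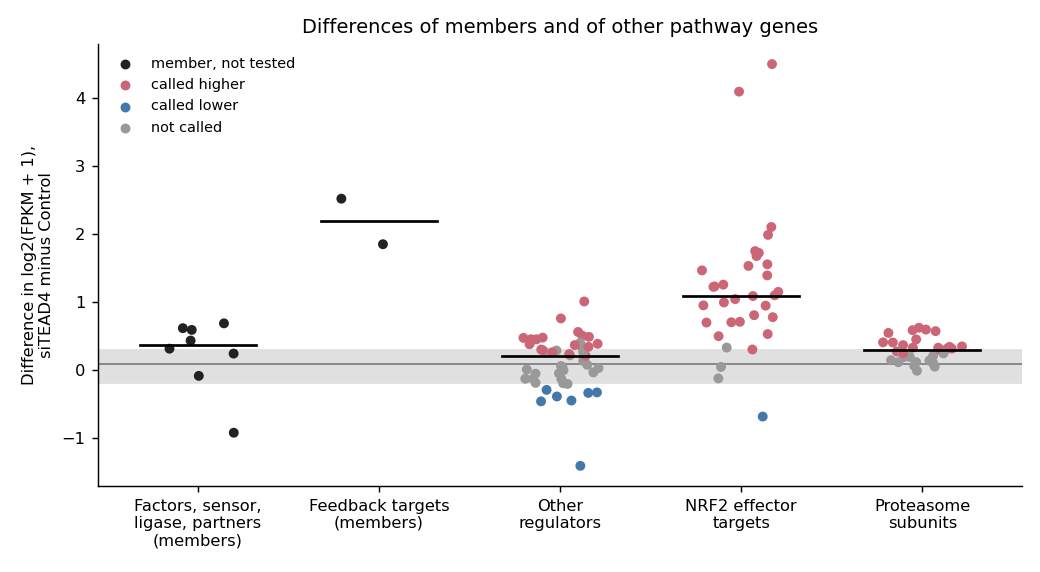
Difference in log2(FPKM + 1), siTEAD4 minus Control, for each tested gene of the members and the lists. Black bars are medians, and colours give the limma call for genes that are not members. Members are drawn in a single dark colour, and "member, not tested" in the key means only that no p-value is given for them. The grey band and line give the middle quartiles and median (0.09) of all genes tested. The feedback targets lie among the NRF2 effector targets (median 1.09), above the factor, sensor, ligase and partner genes (median 0.38) and the other regulators (median 0.22).

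The genes whose pattern over the 6 libraries was most like that of a member were found by the smallest root mean square difference in log2(FPKM + 1) from each gene's Control mean. For SQSTM1 they were the phosphatase gene DUSP5 (0.0636), the asparagine synthetase gene ASNS (0.0887) and the chaperone gene HSPA1B (0.0925), which shares reads with HSPA1A. OSGIN1 had no neighbour as close: the nearest were HSPA6 (0.293), the cytokine gene IL11 (0.314) and NQO1 (0.337). The measure includes the difference between the groups. For SQSTM1 and OSGIN1 it thus mostly finds genes with a rise of similar size on this scale. HSPA6 averaged only 0.153 FPKM in Control and 4.28 FPKM in siTEAD4, so its likeness to OSGIN1 depends on the added 1. Few rises were as large as that of OSGIN1, which ranked 4, so few genes could lie near it. For NFE2L2, high in Control 1, Control 3 and siTEAD4 3 and lower in the other libraries, the nearest genes were SEPTIN10 (0.0244), VWA8 (0.0291) and DMD (0.0298). VWA8 and DMD averaged 1.96 and 1.66 FPKM in Control, levels at which the added 1 shrinks differences between libraries.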

How the data were processed

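Trizol RNA of 786-O cells was made into BGISEQ-500 libraries, per the labels' protocols, and the 3 Control and 3 siTEAD4 libraries were grouped by title. The authors deposited 1 table per library with 18126 symbols and FPKM values with 2 decimals (unit per the file headers). The header of Control 1 names no unit, and its values match the other tables in symbols and range. Per the submitters' processing notes the build was GRCh38. Which aligner, counting tool and annotation they used, and whether strand was counted, is not given in the sources used here. The smallest values above 0 are 0.01 FPKM, the rounding step, so single reads could not be recovered and depth is unknown.

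Genes at 1 FPKM or more in at least 3 libraries were tested (11411, among them all 10 members). Values were fitted as log2(FPKM + 1) with limma 3.58.1 in R 4.3.3 (trend, group only). Benjamini-Hochberg adjustment covered all genes tested, with a threshold of 0.05. The fit was also run on simulated data, but the outcome is not given here, and nothing about the calls is read from it. FPKM depends on the library's total: 58.2% of calls were higher in siTEAD4 on the deposited values and 46.9% after rescaling to one median. Whether replicate numbers pair the libraries could not be settled. The members and lists were chosen with earlier results of these data known. Genes named were the members, TEAD4, up to 3 called genes per list with the largest difference, and the 3 genes most like SQSTM1, OSGIN1 and NFE2L2. ABCC1, MAF, DDI2, RBX1, SYVN1, the low relatives and the markers were added after their values were seen. One gene of the lists is not reported here.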

Additional observations from a re-analysis of the deposited data

How the results depend on the processing

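Over 17 alternatives the members' values are given as a description, since the members were chosen with this contrast known. The difference of SQSTM1 ranged from 1.78 to 1.93, that of OSGIN1 from 1.89 to 2.76 and that of NFE2L1 from -0.99 to -0.84. KEAP1 lost its call in 9 of the 17, among them each omission of a library other than Control 2, rescaling to one median and TMM-like scaling, with a difference of 0.24 to 0.41 over the 17. BACH1 lost it with no filter on low values, while CUL3 gained one without Control 1 (0.31) and NFE2L2 without Control 2 (-0.17).

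Leaving out 1 library gave 3415 to 6689 called genes in the whole table (5123 with all), 10 to 32 other regulators (27 with all), 10 to 28 proteasome subunits (18 with all), 29 to 31 NRF2 effector targets (30 with all) and 7 to 9 members (8 with all). An adjusted p under 0.01 left 3087 genes in the whole table, 10 other regulators, 10 proteasome subunits and 28 NRF2 effector targets. The share of the other regulators called was then below that of the whole table. Rescaling to one median left 10 proteasome subunits, TMM-like scaling 13 and quantile normalization 18. TEAD4 stayed called as lower in all 17 (-0.79 to -0.50). The cause of these shifts was not tested.

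Whether the replicate numbers shared by the groups pair the libraries could not be settled. Deviations of same-numbered libraries correlated at -0.163, 0.272 and 0.0896, and those of differently numbered libraries at -0.367 to 0.39. With the replicate block, 5180 genes were called in the whole table, 8 members, 26 other regulators, 31 NRF2 effector targets and 18 proteasome subunits. Depth is unknown, so counting error is not separated from the spread between libraries.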

Other observations

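Several members share their locus with another gene, and whether counting used strand is not given here, so reads could be shared. SIRT7, which overlaps MAFG on the same strand, was higher in siTEAD4 without overlap, with a Control mean of 11.7 ± 1.59 FPKM and a siTEAD4 mean of 17.2 ± 0.836 FPKM (SD, n = 3 each). MGAT4B, which overlaps SQSTM1 on the opposite strand, was at 129 ± 19.3 and 151 ± 10.01 FPKM with overlap between groups, a log2 difference of 0.23 beside 1.86 for SQSTM1. MRNIP, also opposite to SQSTM1, was at 3.23 ± 0.499 and 3.22 ± 0.644 FPKM. AGPS, opposite to NFE2L2, was at 20.2 ± 3.07 and 24.0 ± 1.73 FPKM. PLA2G6 (opposite to MAFF) and TMEM184A (opposite to MAFK) had differences of -0.26 and -0.19, where MAFF and MAFK were higher. GRIK1, opposite to BACH1, was at 0.1 ± 0.04 and 0.0733 ± 0.0208 FPKM. OSGIN1 overlaps the protein-coding gene AC009119.2 on the same strand, which was not analysed here. These genes were chosen for their position, and their part in the members' values was not tested.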
